A study of Mus musculus with 12 samples.

Results

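Dividing T cells were examined among brain T cells of female mice aged 9 months. The cells were chosen by measured values. A cell was selected when its barcode held 500 or more genes, at most 10% mitochondrial UMIs (unique molecular identifiers, 1 per captured transcript), 1 or more Cd3e UMIs and 2 or more UMIs of Mki67 and Top2a together. Cd3e encodes a subunit of the T cell receptor complex, Mki67 a protein that coats mitotic chromosomes, and Top2a the topoisomerase that untangles replicated DNA. The rule took 699 of 17419 Cd3e-positive cells, and the other 16720 are the comparison throughout, called the other cells. The 6 pools were WT-1 from 10 mice, WT-2 from 8, 5XFAD-1 from 4, 5XFAD-2 from 3, PS19 from 4 and PS-5X from 4, each with 1 5′ gene expression library and 1 T cell receptor library.

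WT mice carried neither transgene. 5XFAD mice carry mutant human amyloid precursor protein and presenilin transgenes and form amyloid plaques, and were C57BL6 congenic. PS19 mice, supplied as B6C3F1/J, express mutant human tau (MAPT) from the mouse prion protein promoter, and PS-5X mice carry both transgenes from crosses of hemizygous parents. The amyloid pools are thus 5XFAD-1, 5XFAD-2 and PS-5X, and the pools without amyloid are WT-1, WT-2 and PS19. Half-brains of perfused mice were digested and sorted for T cells that were CD4+, CD8+ or γδ+, so the gate sets the mixture of T cell types, and the animals of a pool cannot be told apart. The pool is the replicate. PS19 and PS-5X are 1 pool each.

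A T cell that meets its antigen, or that receives cytokines such as interleukin-2, interleukin-7 or interleukin-15, leaves quiescence, copies its DNA in S phase and divides in G2 and M phase. Its daughters inherit the same T cell receptor and form a clone, which the receptor's complementarity-determining region 3 (CDR3) sequence marks. Cyclins and their kinases drive the steps, kinase inhibitors hold them back, and the machinery of DNA copying and of the mitotic spindle is made only around them.

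The name given to these cells holds for fewer than all of them. Of 107 cycle genes other than Mki67 and Top2a (the S phase and G2/M lists), the other cells had a median of 8 with a UMI. Selected cells with exactly 2 Mki67 and Top2a UMIs, the edge of the rule, had a median of 10 (282 cells), cells just outside it with 1 UMI had 9 (1309 cells), and cells with 10 or more had 86 (225 cells). Stmn1, a regulator of microtubules, was detected in 18.4% of selected cells with 2 UMIs, 10.4% of cells with 1 and 99.1% of cells with 10 or more. Rrm2, the subunit of ribonucleotide reductase that is made in S phase, was detected in 2.84%, 2.37% and 89.3% of these cells. The counts of cycle genes fell into a group below 30 and a broad group above.

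**Figure D1:**
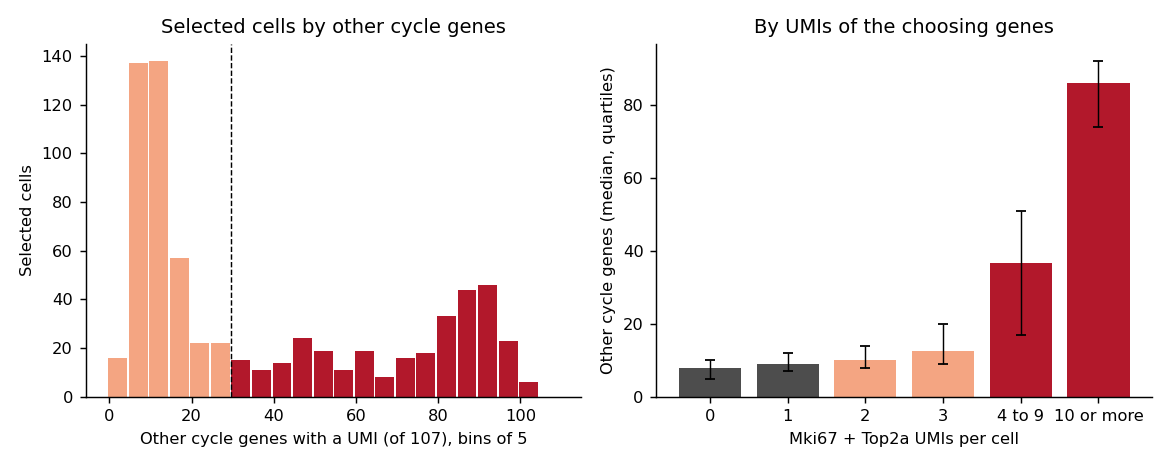
Left, number of selected cells against the number of other cycle genes with a UMI, out of 107, in bins of 5, with a dashed line at 30. Right, median number of other cycle genes (bars) with quartiles (lines) against Mki67 and Top2a UMIs per cell in all Cd3e-positive cells; the medians are 8 at 0 UMIs and 86 at 10 or more.

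A division at 30 other cycle genes, chosen after these values were seen, put 307 selected cells (43.9%) above it and 392 (56.1%) below. The 307 cells carried the whole program: a median of 79 other cycle genes, 27 Mki67 and Top2a UMIs and 16166 UMIs in all, with Stmn1 in 99.0% and Rrm2 in 74.6%. The 392 cells had a median of 11 other cycle genes, 2 Mki67 and Top2a UMIs and 7158 UMIs in all, with Stmn1 in 17.1% and Rrm2 in 2.81%, against 8 genes, 6098 UMIs, 9.07% and 1.46% in the other cells. The 307 cells are called cycle-rich here and the 392 cycle-poor. Their cycle genes differ by the way they were divided, but Stmn1, which neither the rule nor the division used, differs as well. The label was not shown by its other markers in the cycle-poor cells. Within 5 genes of the division lay 15 cycle-rich and 22 cycle-poor cells, and 71 cells outside the selection also had 30 or more cycle genes. By the doublet caller Scrublet the highest scores of each pool were marked, up to an expected 0.8% per 1000 barcodes. Marked were 0.977% of cycle-rich, 7.14% of cycle-poor and 3.30% of other cells, and 7.17%, 5.61% and 3.40% of these classes carried 2 β-chain contigs. The number marked follows pool size, with 0.780% of other cells in WT-1 and 5.23% in PS-5X. PS-5X held 129 of the 392 cycle-poor and 70 of the 307 cycle-rich cells. The part of doublets in the results was not tested beyond leaving them out. All values of these 2 classes are descriptions with no test, and differences between them were not tested.

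WT-1 stood apart from the other libraries. It was the smallest, with 854 barcodes and 5883210 UMIs against up to 38616794 UMIs in the others, while its other cells had the highest median UMIs per cell. Of its 559 cells with both receptor chains, 173 (30.9%) shared the full receptor with a cell of another pool, and so did 12 of its 26 selected cells with both chains. It shared 65 receptors with 5XFAD-1, 52 with PS19 and 3 with PS-5X, while of the pairs of pools without WT-1 only PS19 and PS-5X shared any (6). How mice of separate pools came to share receptors was not tested. Over the 6 libraries 166 of 18208 distinct cell barcodes occurred in more than 1 pool. Results are given with and without WT-1, or without its shared cells, where that matters.

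The clones are described first, since the CDR3 sequence names a family of cells that divided from 1 ancestor. The clones with the most selected cells were 1 CD4 clone in 5XFAD-1 with 12 selected of 53 cells, 1 CD8 clone in WT-2 with 11 of 21, and 1 CD8 clone in PS-5X with 10 of 363. The sequences of these clones are the nucleotides of the CDR3, with the bases between its first and last codon in capitals.

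5XFAD-1 CD4 clone, β chain (TRBV5, TRBJ1-6): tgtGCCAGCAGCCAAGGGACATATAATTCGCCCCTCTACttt
5XFAD-1 CD4 clone, α chain (TRAV9-4, TRAJ57): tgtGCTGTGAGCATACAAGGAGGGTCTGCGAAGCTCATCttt
WT-2 CD8 clone, β chain (TRBV17, TRBJ1-2): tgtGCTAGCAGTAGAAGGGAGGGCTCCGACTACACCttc
WT-2 CD8 clone, α chain (TRAV16, TRAJ56): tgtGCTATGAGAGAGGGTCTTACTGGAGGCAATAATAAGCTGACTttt
PS-5X CD8 clone, β chain (TRBV29, TRBJ2-7): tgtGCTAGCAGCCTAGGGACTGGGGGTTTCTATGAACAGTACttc
PS-5X CD8 clone, α chain (TRAV14D-2, TRAJ37): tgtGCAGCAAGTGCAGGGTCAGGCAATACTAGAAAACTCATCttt

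These clones differed in how much of them was selected and in what kind of selected cell they held. In the WT-2 clone the selected share was 52.4% (exact Clopper-Pearson 95% interval 29.8 to 74.3%) and 8 of the 11 selected cells were cycle-rich. In the 5XFAD-1 clone it was 22.6% (12.3 to 36.2%) and 5 of the 12 were cycle-rich. In the PS-5X clone, the largest of its pool, it was 2.75% (1.33 to 5.01%) and 0 of the 10 were cycle-rich. Pdcd1, the inhibitory receptor PD-1, was detected in 94.3% of cells in the 5XFAD-1 clone, in 89.0% in the PS-5X clone and in 0 of 21 cells of the WT-2 clone, which allows a share of up to 14.3%. These intervals cover counting error only, and cells of a clone share 1 pool.

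The next clones by selected cells were all CD8 and from PS-5X, with 5 selected of 72 cells, 4 of 47, 4 of 45 and 4 of 29. Their β chains are given to show that they differ. The β chain of the clone of 72 cells also marked a clonotype of 20 cells with no α chain, 2 of them selected, which the deposited table counts separately.

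PS-5X clone of 72 cells, β chain: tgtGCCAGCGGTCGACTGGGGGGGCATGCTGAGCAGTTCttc
PS-5X clone of 47 cells, β chain: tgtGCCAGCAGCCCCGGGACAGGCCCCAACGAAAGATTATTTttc
PS-5X clone of 45 cells, β chain: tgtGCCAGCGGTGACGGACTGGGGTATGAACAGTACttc
PS-5X clone of 29 cells, β chain: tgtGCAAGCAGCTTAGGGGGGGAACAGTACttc

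The largest clone of 5XFAD-1, with 156 cells, had 3 selected cells, and the same 2 chains were found in a WT-1 clone of 22 cells, also with 3 selected cells. It is printed because it is among the 65 receptors found in both pools, and whether it marks 1 family of cells was not tested.

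5XFAD-1 and WT-1 clone, β chain (TRBV29, TRBJ2-3): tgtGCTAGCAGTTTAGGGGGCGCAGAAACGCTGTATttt
5XFAD-1 and WT-1 clone, α chain (TRAV7D-2, TRAJ48): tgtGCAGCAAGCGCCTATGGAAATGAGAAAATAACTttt

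In the other pools the largest clones held 0 to 3 selected cells each. In 5XFAD-2 the clones of 56, 29 and 21 cells held 0, 1 and 1, and in PS19 the clones of 24, 23 and 23 cells held 2, 3 and 2. In WT-2 the clones of 50, 45 and 30 cells held 0, 1 and 1.

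**Figure D2:**
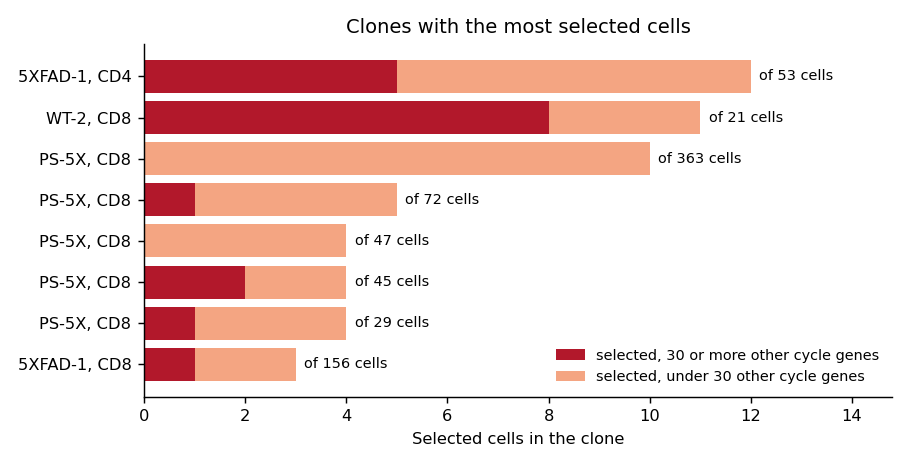
Number of selected cells (x axis) in the clones that held the most, each named by pool and lineage, divided into cells with 30 or more other cycle genes and with fewer; the clone's size stands beside each bar. The WT-2 clone has 11 selected of 21 cells, 8 of them with 30 or more.

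Most selected cells did not belong to such clones. The median clone size of selected cells was 1 in every pool, and the 30, 135, 103, 70, 102 and 171 selected cells with a receptor in WT-1, WT-2, 5XFAD-1, 5XFAD-2, PS19 and PS-5X came from 27, 116, 82, 66, 95 and 138 clones. Selected cells were still more often in expanded clones, meaning clones with 2 or more cells in their pool, than the other cells. The shares were 40.0% of selected against 16.3% of other cells in WT-1, 41.5% against 26.7% in WT-2, and 38.8% against 38.4% in 5XFAD-1. They were 41.4% against 32.8% in 5XFAD-2, 27.5% against 19.9% in PS19 and 49.7% against 41.4% in PS-5X. The selected share was the higher in 6 of 6 pools, narrowly in 5XFAD-1. The mean was 39.8% ± 7.17 (SD, n = 6 pools) against 29.3% ± 10.1, a difference of 10.5 points (exact sign-flip permutation test, two-sided, p = 0.03125, the smallest 6 pools can give; Benjamini-Hochberg adjusted p = 0.0469 over the 3 tests).

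In CD8 cells the difference was 13.4 points, 48.0% ± 9.82 against 34.6% ± 11.4 (SD, n = 6), higher in 6 of 6 pools (adjusted exact permutation p = 0.0469). In CD4 cells it was 5.95 points, higher in 5 of 6 pools, and did not pass (adjusted exact permutation p = 0.0625). Without naive-type cells, those with a UMI of 2 or more genes of a list of naive T cell genes that includes Ccr7, Lef1, Igfbp4, Dapl1 and Actn1, the difference over all cells was 3.29 points (adjusted exact permutation p = 0.625), and with 3 or more Mki67 and Top2a UMIs it was 6.71 points (adjusted exact permutation p = 0.188). Against the other cells closest in depth (5 per selected cell) the difference was 19.8 points over all cells and 25.5 in CD8 cells. Both passed (adjusted exact permutation p = 0.03125). The matched cells were in expanded clones less often than all other cells in every pool, from 10.1% in WT-1 to 34.4% in PS-5X. Naive-type cells had higher median UMIs than the rest in every pool. Without them the depth-matched differences were 9.84 and 11.9 points and did not pass (adjusted exact permutation p = 0.0938 for both). That alternative was added after seeing the data. The depth match was incomplete, and this holds wherever it is used. Median UMIs were 14980.5 in selected and 10068 in matched cells of PS19, 10725 and 9078 in WT-2 and 11828 and 10738 in 5XFAD-2. Cycle-rich cells were in expanded clones in 36.4, 35.1, 43.8, 33.3, 24.6 and 42.6% of cases in the order of pools above, and cycle-poor cells in 42.1, 49.2, 36.6, 47.5, 31.1 and 53.6%.

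Clones of 20 or more cells had a higher selected share than single-cell clones in 5 of 6 pools, but the steps between differed. The shares were 13.6% against 3.32% in WT-1, 6.69% against 3.52% in WT-2 and 5.74% against 4.70% in 5XFAD-1. These larger clones numbered 1, 9 and 6, and single clones carried much of their share. In WT-1 it was 1 clone with 3 selected of 22 cells (2.91 to 34.9%). In WT-2 1 clone held 11 of the 17 selected cells, and in 5XFAD-1 1 clone held 12 of the 22. Among CD8 cells of 5XFAD-1 the larger clones were lower, at 3.23% against 3.59%. In PS19 4.41% of cells of single-cell clones, 7.17% of those in clones of 2 to 4, 3.73% of those in clones of 5 to 19 and 10.0% of those in clones of 20 or more were selected. In 5XFAD-2 the same shares were 3.47, 5.61, 5.69 and 2.38%, and in PS-5X 2.85, 3.00, 4.83 and 4.18%.

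The share of selected cells among Cd3e-positive cells was similar in the pools. It was 4.23% in WT-1 (34 cells; Clopper-Pearson 95% interval 2.95 to 5.87%), 4.23% in WT-2 (149; 3.59 to 4.95%) and 4.58% in 5XFAD-1 (116; 3.80 to 5.47%). It was 4.21% in 5XFAD-2 (91; 3.40 to 5.14%), 4.68% in PS19 (110; 3.86 to 5.62%) and 3.29% in PS-5X (199; 2.85 to 3.77%). PS-5X had the lowest share, and the other 5 pools lay within each other's intervals. The amyloid pools averaged 4.03% ± 0.67 and the pools without amyloid 4.38% ± 0.26 (SD, n = 3 each), a mean difference between them of -0.357 points. By a two-sided exact permutation test p was 0.4, where 3 against 3 pools cannot go below 0.1. Within the common sequencing run the difference was -0.523 points, and within the separate run of WT-2 and 5XFAD-2 it was -0.0246 points. Without PS-5X it was 0.0122 points. Without naive-type cells, an alternative added after seeing the data, it was -1.30 points (exact permutation p = 0.1, the smallest possible), and the pools did not overlap.

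Selected cells held more RNA than the others, and depth moved with the share. Their median UMIs were 9726.5, 10725, 10314.5, 11828, 14980.5 and 8689 in the order of pools above, against 6957, 5406.5, 6499, 6225, 6672 and 5999 in the other cells. With each cell thinned to 3000 UMIs the shares were 2.00, 2.61, 2.20, 1.92, 2.57 and 1.65%, with 89 to 552 shallower cells per pool left out. Free RNA in the droplets can also give UMIs. Naive-type T cells, most of which should be at rest, were selected in 2.67, 3.36, 4.91, 4.62, 3.71 and 2.01% (median 6579 to 8539 UMIs), against 5.36, 4.94, 4.47, 3.93, 5.92 and 3.91% of cells of other types (median 4630 to 6203 UMIs). In both 5XFAD pools the whole share was at or below that of naive-type cells. Cycle-rich cells were among the naive-type cells too, 6, 34, 11, 26, 33 and 14 of them by pool, so these cells give no clean background level. Thinned, 0.401 to 1.29% of naive-type cells and 2.10 to 3.93% of the rest were selected, the rest being higher in all 6 pools. Cycle-rich cells alone made up 1.37, 2.30, 1.62, 1.90, 2.68 and 1.16% of Cd3e-positive cells.

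**Figure D3:**
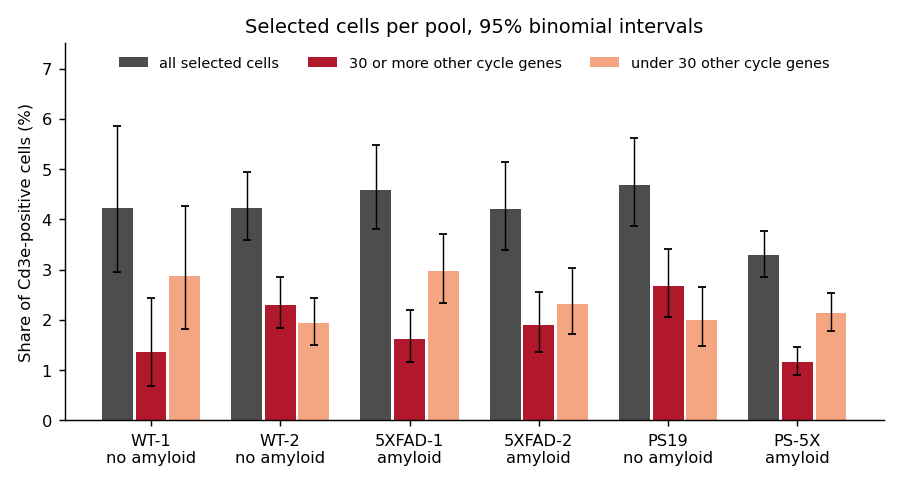
Share of Cd3e-positive cells (percent, y axis) that were selected in each of the 6 pools, in all and divided at 30 other cycle genes, with Clopper-Pearson 95% intervals. PS-5X is lowest for all selected cells, at 3.29%, and for cells with 30 or more, at 1.16%.

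By lineage genes, most selected cells were CD8 cells. Lineage was read from UMIs of Cd8b1 (CD8 coreceptor), Cd4 (CD4 coreceptor) and Trdc (δ chain constant region), 1 of them present and the other two absent. There were 428 CD8, 158 CD4 and 16 γδ selected cells. CD8 cells were 52.9% of selected and 59.4% of other cells in WT-1, 62.4% and 60.5% in WT-2, and 47.4% and 60.9% in 5XFAD-1. They were 70.3% and 59.8% in 5XFAD-2, 60.9% and 61.9% in PS19 and 65.8% and 68.7% in PS-5X. The selected share was the higher in 2 pools and the lower in 4, with a mean difference of -1.91 points (adjusted exact sign-flip permutation p = 0.594), and of 0.397 points without 5XFAD-1.

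CD4 cells were a larger part of the selected cells in 5 of 6 pools and γδ cells a smaller part in all 6, but neither passed after adjustment over the 3 lineages. The CD4 share was 29.4, 22.1, 34.5, 12.1, 26.4 and 17.6% of selected cells against 16.5, 18.3, 17.6, 15.6, 20.4 and 13.2% of other cells, with 5XFAD-2 the exception. The mean difference was 6.75 points (exact sign-flip permutation p = 0.0625, adjusted p = 0.0938). The γδ share was 2.94, 2.01, 4.31, 1.10, 1.82 and 2.01% against 4.81, 4.69, 6.17, 6.71, 4.91 and 4.29%, from 1, 3, 5, 1, 2 and 4 selected cells. The mean difference was -2.90 points (exact sign-flip permutation p = 0.03125, adjusted p = 0.0938).

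Depth moved with these shares too. Cells with UMIs of 2 or 3 lineage genes were 9.22% ± 3.01 of selected and 4.40% ± 1.08 of other cells (SD, n = 6), the selected cells being the deeper ones. Against the other cells closest in depth the CD4 difference was 10.7 points and the γδ difference -2.70 points (adjusted exact permutation p = 0.0469 for both). With all cells thinned to 3000 UMIs they were 2.85 and -2.43 points and did not pass (adjusted exact permutation p = 0.0938 for both). Among cycle-rich cells the CD8 share was 45.5, 64.2, 46.3, 58.5, 65.1 and 65.7% and the CD4 share 36.4, 18.5, 29.3, 19.5, 22.2 and 17.1%, with 0 to 3 γδ cells per pool.

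**Figure D4:**
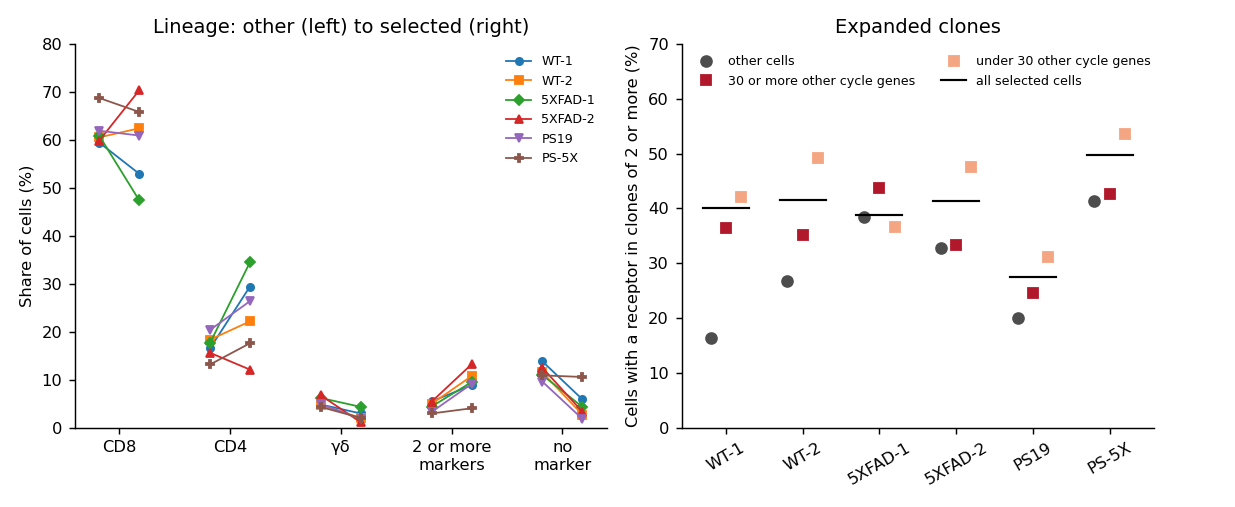
Left, share of cells (percent) of each lineage in the other cells and in the selected cells, with a line joining the 2 values of each pool. Right, share of cells with a receptor (percent) that lie in clones of 2 or more cells, for other cells, all selected cells and the selected cells divided at 30 other cycle genes; all selected cells lie above the other cells in 6 of 6 pools.

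Within CD4 cells the selected share was 7.30, 5.07, 8.58, 3.29, 5.98 and 4.35%, within CD8 cells 3.79, 4.36, 3.61, 4.91, 4.61 and 3.15%, and within γδ cells 2.63, 1.86, 3.25, 0.714, 1.79 and 1.57%. CD4 cells with a UMI of Foxp3, the transcription factor of regulatory T cells, were few. Of them 1 of 3, 4 of 36, 3 of 7, 1 of 23, 5 of 22 and 2 of 29 were selected. Cycle-rich were 1, 3, 2, 1, 0 and 0 of these selected cells. CD4 cells with no Foxp3 UMI were selected in 6.72, 4.72, 8.06, 3.22, 5.18 and 4.25%. Median UMIs were 9074, 6336, 14591, 4982, 6120.5 and 5590 with Foxp3 and 6806, 4998, 6122, 5361, 6071 and 5245 without it. CD8 cells outside the naive type with Itgae, the integrin CD103 of tissue-resident T cells, were selected in 8.00, 7.46, 6.92, 4.27, 6.67 and 5.46%, in WT-1 and PS19 from 2 selected cells each. CD8 cells outside the naive type with Pdcd1 were selected in 5.00, 3.88, 3.41, 5.52, 6.35 and 4.37% and those without it in 6.15, 6.26, 3.28, 4.12, 5.43 and 3.10%, the higher with Pdcd1 in 4 pools and without it in 2.

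Expression was compared on UMI sums, 1 of selected and 1 of other cells per pool (387488 to 1955460 and 5362140 to 35969100 UMIs), and is given as CPM, counts per 1e+06 UMIs on scaled library totals. The cycle genes follow the choice of cells and are a description. Mki67 was at 488, 832, 771, 506, 751 and 656 CPM in selected and at 3.31 to 6.75 CPM in other cells, and Top2a at 282, 639, 614, 433, 705 and 472 CPM against 5.93 to 8.46 CPM. Stmn1 was at 476, 1149, 890, 840, 1106 and 835 CPM against 12.6 to 34.2 CPM, and Rrm2 at 115, 346, 279, 300, 389 and 242 CPM against 1.93 to 3.67 CPM. The groups did not overlap for any of the 4, and WT-1, where cycle-poor cells made up 67.6%, had the lowest level of all 4 in selected cells.

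The G2/M genes stood farther from the other cells than the S phase genes. The 64 measured G2/M genes had a median log2 difference of 5.65, the 43 S phase genes 2.58, and the 40 chromatin and tubulin genes of dividing cells 2.66. Examples are the log2 differences of 8.55 for Birc5 (survivin, of the chromosomal passenger complex), 8.41 for Ccna2 (cyclin A2) and 5.72 for Cdk1 (the kinase of mitotic entry), against 3.77 for Tyms (thymidylate synthase), 2.84 for Mcm5 (of the replicative helicase) and 1.96 for Pcna (the sliding clamp of replication). In cycle-rich cells the 3 medians were 6.35, 3.20 and 3.28, and in cycle-poor cells 1.12, 0.20 and 0.21. The 2 genes that chose the cells both belong to the G2/M list. Counted per cell, 331 selected cells had more S phase than G2/M UMIs and 342 the reverse.

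The 12 largest rises outside these lists were cycle genes as well and are also given with no test. They were Pimreg, Espl1 (separase, which frees sister chromatids), Kif14, Ska1, Nek2, Kif18b, Neil3, Hist1h2af, Aspm, Sapcd2, Cdkn3 and Cdca5 (sororin, which holds sister chromatids together). Nearly all lay close to 0 in other cells, so that their fold is not well set: Nek2, a kinase of the centrosome, was at 23.9 to 45.7 CPM in selected and 0.0295 to 0.187 CPM in other cells, and Neil3, a DNA glycosylase, at 39.3 to 71.1 CPM against 0 to 0.375 CPM. Reads of Hist1h2af can be shared with its near-identical histone copies.

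Among 10894 genes tested with edgeR's quasi-likelihood test with pool as a block, 4257 (39.1%) had an adjusted p (Benjamini-Hochberg over all genes) under 0.05. This total and those for CD8 cells and the alternatives below include the cycle genes, which follow the choice of cells. Of 10747 genes outside the cycle lists 2074 (19.3%) were higher and 2036 (18.9%) lower in selected cells. The counts of each gene list below are read against these shares. The median log2 difference of all genes was -0.04. Among the cell cycle brakes, 6 of 17 measured genes of the list of kinase inhibitors and quiescence were higher and 10 lower, with a median log2 difference of -0.39. The higher ones included the inhibitors Cdkn2c (log2 difference 2.37, 66.4 ± 15.7 against 13.5 ± 2.62 CPM, SD, n = 6; edgeR adjusted p = 4.01e-10), Cdkn2a (3.10), Cdkn1a (1.48) and Cdkn2d (0.90), and the retinoblastoma gene Rb1 (0.65). The lower ones included Btg1, an antiproliferative factor (log2 difference -0.83).

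Cdkn1b, the inhibitor p27, was at 235, 185, 204, 157, 148 and 166 CPM in selected and 239, 275, 225, 230, 235 and 224 CPM in other cells. It was lower in 6 of 6 pools, narrowly in WT-1 (log2 difference -0.41, SE 0.0816; edgeR adjusted p = 0.000809). Klf2, a factor of T cell quiescence, was lower in 6 of 6 pools, at 493 to 944 against 1002 to 1644 CPM without overlap (log2 difference -0.71, edgeR adjusted p = 7.26e-05). Among the largest falls was Pik3ip1, an inhibitor of phosphoinositide 3-kinase, at 12.0 to 25.2 CPM in selected and 38.4 to 75.6 CPM in other cells (log2 difference -1.56, edgeR adjusted p = 8.48e-07). In cycle-rich cells the log2 difference of Cdkn1b was -0.85 and in cycle-poor cells 0.09.

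The metabolism that feeds DNA synthesis was higher. Of 22 measured genes of nucleotide and one-carbon synthesis outside the cycle lists, 14 were higher and 1 lower, with a median log2 difference of 0.37. Mthfd2, the mitochondrial folate enzyme, was at 106 ± 25.7 CPM in selected and 43.7 ± 4.62 CPM in other cells (SD, n = 6; log2 difference 1.32, edgeR adjusted p = 3.57e-09). Dctpp1, which clears modified dCTP, was at 62.7 ± 18.3 against 19.5 ± 2.07 CPM (log2 difference 1.70, edgeR adjusted p = 1.03e-08). Paics, of purine synthesis, had a log2 difference of 0.80 and Shmt2, serine hydroxymethyltransferase, of 0.53.

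Energy genes moved with them. Of 20 nuclear genes of oxidative phosphorylation 14 were higher and 0 lower (median 0.32 on the log2 scale), among them Cox5a at 0.55 and cytochrome c, Cycs, at 0.39. Of 15 glycolysis genes 8 were higher and 2 lower (median 0.25), among them Gapdh at 0.74, Pgk1 at 0.52 and Ldha at 0.38. The 13 mitochondrially encoded genes went the other way, 0 higher and 11 lower (median -0.27). In cycle-rich cells the medians of the nucleotide, oxidative phosphorylation, glycolysis and mitochondrially encoded lists were 0.71, 0.51, 0.44 and -0.39, and in cycle-poor cells -0.32, 0.00, -0.09 and -0.16. The 20 ribosome biogenesis genes had 2 higher and 6 lower (median -0.13).

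Genes of resting, recirculating T cells were lower. Of 18 genes of the naive and central memory list 0 were higher and 17 lower, with a median log2 difference of -1.20. Il7r, the interleukin-7 receptor that keeps resting T cells alive, was at 316, 211, 295, 272, 176 and 272 CPM in selected and 670, 670, 607, 661, 727 and 545 CPM in other cells. Every selected value lay under every other value (log2 difference -1.36, SE 0.11; edgeR adjusted p = 9.41e-08). Ccr7, the chemokine receptor for lymph node entry, was at 59.8, 180, 182, 200, 201 and 119 CPM against 451, 595, 315, 447, 690 and 398 CPM, again without overlap (log2 difference -1.57, SE 0.15; edgeR adjusted p = 4.67e-07).

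Lef1, a transcription factor of naive T cells, was at 68.8 to 129 CPM in selected and 159 to 409 CPM in other cells (log2 difference -1.50, edgeR adjusted p = 1.22e-07). Its relative Tcf7 was at 184 to 247 against 280 to 529 CPM (log2 difference -0.80, edgeR adjusted p = 8.46e-06). Neither overlapped between the groups. S1pr1, the receptor for leaving tissue, was at 88.5 to 143 against 136 to 294 CPM (log2 difference -0.95, edgeR adjusted p = 3.07e-07).

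Ccr7 and Lef1 are among the genes that define naive-type cells, which need a UMI of 2 or more genes of that list. With naive-type cells left out of both groups, S1pr1 lost its call, while Il7r, Tcf7 and Klf2 kept theirs. Ccr7 lost its call and Lef1 kept it, but the removal was made on these genes, so it cannot test them. The number of called genes then was 2695. The same setting ended the calls of Tdrp, Treml2 and Rflnb, which had log2 differences of -1.66, -1.49 and -1.47.

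Of 16 receptors of interleukin-2 and other cytokines 0 were higher and 9 lower (median -0.33 on the log2 scale), among them Ifngr1 at -0.60 and Il18r1 at -0.42. Ifngr2, the other chain of the interferon gamma receptor, had the largest fall among genes that were lower in every pool and at 20 CPM or more on average in the other cells. It was at 9.58, 7.43, 16.3, 17.5, 8.60 and 10.4 CPM in selected and 46.5, 44.9, 26.9, 49.6, 58.3 and 42.6 CPM in other cells. The groups did not overlap (log2 difference -1.95, SE 0.19; edgeR adjusted p = 6.15e-07). Il2ra (log2 difference -0.45, edgeR adjusted p = 0.109) and Il2rb (-0.10, edgeR adjusted p = 0.241), the inducible α and the β chain of the interleukin-2 receptor, did not pass. Both did in some alternatives. Il2ra passed without PS19 (-0.80, edgeR adjusted p = 0.000172), without naive-type cells (-0.95), without doublets (-0.61) and with no gene filter (-0.50). Il2rb passed without WT-1 (-0.17, edgeR adjusted p = 0.0351), without naive-type cells (-0.27) and against the other cells closest in depth (-0.26). Within CD8 cells Il2ra went the other way in every pool but WT-1. Its log2 CPM ratios were -3.45, 1.03, 0.40, 0.88, 0.54 and 0.44 in the order of pools above. A small constant was added to both CPM values of each ratio. The WT-1 ratio came from 18 selected cells with 198327 UMIs in all, so it is not well set.

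Of 14 apoptosis regulators 3 were higher and 6 lower (median -0.14). Bcl2, which protects resting lymphocytes, was at 266, 145, 212, 227, 108 and 305 CPM against 319, 284, 351, 336, 306 and 399 CPM, lower in 6 of 6 pools (log2 difference -0.74, edgeR adjusted p = 0.000116). Mcl1, another survival gene, had a log2 difference of -0.53. The other genes among the largest falls were Patj, a cell polarity scaffold (log2 difference -1.72), Tcp11l2 (-1.52) and Kdm5b, a histone H3 lysine demethylase (-1.42), each lower in 6 of 6 pools. In cycle-rich cells Kdm5b had a log2 difference of -3.36 and Tcp11l2 of -3.01, and in cycle-poor cells -0.26 and -0.48.

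Cytotoxic genes did not move as a group. Of 24 measured, 7 were higher and 6 lower, with a median log2 difference of 0.11. Gzma, granzyme A, was at 515, 1927, 946, 115, 283 and 204 CPM in selected and 250, 446, 345, 57.9, 131 and 85.3 CPM in other cells. Pools differed widely in level, but the selected cells were higher within each (log2 difference 1.36, SE 0.12; edgeR adjusted p = 1.22e-07). Gzmb, granzyme B, was at 350, 597, 341, 176, 188 and 133 CPM against 131, 230, 247, 93.3, 86.4 and 199 CPM, higher in 5 of 6 pools with PS-5X the exception (log2 difference 0.78, SE 0.19; edgeR adjusted p = 0.00374). Without pool as a block neither passed (edgeR adjusted p = 0.0502 and 0.0661).

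Klrg1, a receptor of terminal effector cells, was also higher (log2 difference 1.08, edgeR adjusted p = 6.65e-05). Perforin, Prf1, went the other way (-0.83, edgeR adjusted p = 9.98e-06), as did the receptor Klrd1 (-0.58). Ifng, interferon gamma, had a log2 difference of 0.37 (edgeR adjusted p = 0.0245) and Gzmk, granzyme K, of 0.27 (edgeR adjusted p = 0.015), each higher in 5 of 6 pools, and both lost their calls at 3 or more Mki67 and Top2a UMIs and without naive-type cells. Ifng also lost its call without WT-1, 5XFAD-2 or PS-5X (0.25, 0.32 and 0.35), and Gzmk without WT-2 (0.25). The chemokine gene Ccl5 was at 3209 to 5576 against 4899 to 6871 CPM (log2 difference -0.34, edgeR adjusted p = 0.00362) and lost its call against the other cells closest in depth (-0.12, edgeR adjusted p = 0.295). Ccl3 (0.10, edgeR adjusted p = 0.856), Ccl4 (0.10, edgeR adjusted p = 0.746), Cx3cr1 (0.52, edgeR adjusted p = 0.15), Mif (0.11, edgeR adjusted p = 0.193) and Ly6c2 (-0.19, edgeR adjusted p = 0.207) did not pass. Cx3cr1 did without 5XFAD-1 (0.75, edgeR adjusted p = 0.0129), Ly6c2 without 5XFAD-2 (-0.30, edgeR adjusted p = 0.0364), and Cx3cr1, Ly6c2 and Ccl4 against the other cells closest in depth (1.18, -0.64 and 0.57).

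**Figure D5:**
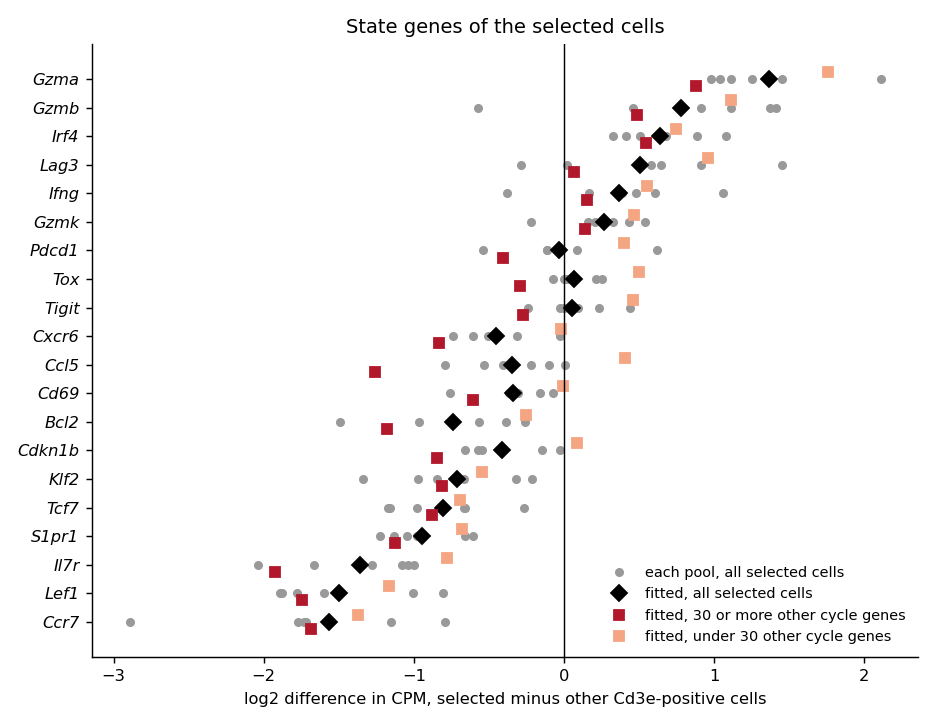
Log2 difference in CPM, selected minus other cells (x axis), for state genes: grey points are the 6 pools, black diamonds the fitted value of all selected cells, and squares the fitted values of cells with 30 or more and under 30 other cycle genes. Gzma lies to the right of 0 and Il7r, Lef1 and Ccr7 to the left in every pool.

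Inhibitory receptors were higher in part. Of 18 genes of the inhibitory receptor and exhaustion list 6 were higher and 0 lower, with a median log2 difference of 0.06. They included Havcr2, the receptor TIM-3 (log2 difference 1.06, edgeR adjusted p = 0.000418), the transcription factor genes Tox2 (2.18) and Ikzf2 (0.62) and the receptor Ctla4 (0.45). Lag3 was at 76.6, 16.6, 86.3, 49.3, 31.5 and 40.1 CPM against 27.4, 16.3, 45.4, 32.6, 19.8 and 49.2 CPM, higher in 5 of 6 pools (log2 difference 0.50, SE 0.16; edgeR adjusted p = 0.0239). It lost its call at 3 or more Mki67 and Top2a UMIs, without naive-type cells, and without WT-1, 5XFAD-1 or PS19 (0.39, 0.37 and 0.47).

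Pdcd1 was at 299, 124, 298, 221, 130 and 260 CPM in selected and 194, 181, 281, 239, 141 and 263 CPM in other cells. It was higher in 2 pools and lower in 4 (log2 difference -0.03, edgeR adjusted p = 0.834), and its direction rested on the comparison. Against the other cells closest in depth its log2 difference was 0.43 (edgeR adjusted p = 0.0155), and at 3 or more Mki67 and Top2a UMIs it was -0.35 (edgeR adjusted p = 0.00632). Tox (0.07, edgeR adjusted p = 0.469) and Tigit (0.05, edgeR adjusted p = 0.649) did not pass. Both did against the cells closest in depth (0.44 and 0.33, edgeR adjusted p = 0.000191 and 0.00485). Without naive-type cells both were lower and did not pass (-0.0856 and -0.20, edgeR adjusted p = 0.535 and 0.169). Naive-type cells had higher median UMIs than the rest in every pool. Their part in the rises of Pdcd1, Tox and Tigit against the cells closest in depth was not tested. In cycle-rich cells the log2 differences of Pdcd1, Tox and Tigit were -0.41, -0.29 and -0.27, and in cycle-poor cells 0.40, 0.50 and 0.46.

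T cell receptor response genes split, with 6 of 20 higher and 5 lower (median -0.12 on the log2 scale). Irf4, a transcription factor induced by receptor signals, was at 127, 125, 122, 111, 81.4 and 104 CPM in selected and 68.2, 58.4, 86.0, 83.1, 50.5 and 82.8 CPM in other cells, higher in 6 of 6 pools (log2 difference 0.64, SE 0.09; edgeR adjusted p = 5.79e-05). Tnfrsf9, the costimulatory receptor 4-1BB, had a log2 difference of 0.47 (edgeR adjusted p = 0.0204), and Myc of -0.26 (edgeR adjusted p = 0.0349). Tnfrsf9 lost its call at 3 or more Mki67 and Top2a UMIs, without naive-type cells, and without WT-2 or PS19 (0.46 and 0.30), and Myc lost its call without any 1 pool but WT-1 (-0.29 to -0.21). Nr4a1 (0.17, edgeR adjusted p = 0.0997) and Icos (-0.11, edgeR adjusted p = 0.276) did not pass, but did without 5XFAD-2 (0.23, edgeR adjusted p = 0.0204) and without WT-1 (-0.18, edgeR adjusted p = 0.0475). Nr4a1 also passed against the other cells closest in depth (0.28, edgeR adjusted p = 0.00661), and Icos without naive-type cells (-0.41, edgeR adjusted p = 0.000271).

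Tissue residency genes showed little movement, with 1 of 15 higher (Litaf) and 2 lower (Cxcr6 and Cd69), below the background share. Cxcr6, a chemokine receptor of resident T cells, was at 407, 222, 341, 369, 204 and 364 CPM against 414, 372, 519, 525, 279 and 452 CPM (log2 difference -0.45, edgeR adjusted p = 0.000247), and against the other cells closest in depth it did not pass (-0.20, edgeR adjusted p = 0.0979). Cd69 had a log2 difference of -0.34 (edgeR adjusted p = 0.00215). Itgae, at 25.7 to 74.3 against 31.8 to 70.5 CPM, did not pass (0.03, edgeR adjusted p = 0.909).

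Genes of type 17 and γδ T cells were lower. Of 16 genes of the helper and type 17 list 1 was higher (Il4) and 8 lower, with a median log2 difference of -0.52. Cd163l1, a scavenger receptor of γδ T cells, was at 45.5, 36.6, 48.8, 20.9, 37.3 and 46.0 CPM in selected and 118, 114, 176, 185, 87.6 and 127 CPM in other cells, without overlap (log2 difference -1.75, edgeR adjusted p = 2.11e-07). Il17a, at 16.0 to 395 against 33.6 to 252 CPM, did not pass (-0.42, edgeR adjusted p = 0.332), but did without WT-1 (-0.78, edgeR adjusted p = 0.045). Beside these genes, 5 of 6 measured γδ markers were lower, Trdc among them (log2 difference -1.45), and the share of γδ cells was lower in 6 of 6 pools. The part of that share in these genes was not tested.

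Regulatory T cell genes were higher, 5 of 11 with 0 lower (median 0.31 on the log2 scale): Foxp3, Tnfrsf4, Ikzf2, Nrp1 and Ctla4. Foxp3 was at 14.4, 28.0, 21.9, 8.35, 16.1 and 12.9 CPM in selected and 3.56, 11.7, 3.05, 15.0, 8.14 and 7.90 CPM in other cells, higher in 5 of 6 pools with 5XFAD-2 the exception (log2 difference 1.08, SE 0.31; edgeR adjusted p = 0.0113). It lost its call at 3 or more Mki67 and Top2a UMIs and without naive-type cells. The CD4 share of selected cells was higher in the same number of pools. In cycle-rich cells its log2 difference was 0.48 and in cycle-poor cells 1.70.

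Of 23 type I interferon genes 3 were higher and 9 lower (median -0.20). Their summed level went the other way, at 2761, 1732, 3045, 1836, 2023 and 3044 CPM of unscaled totals in selected cells. In other cells it was at 1832, 1409, 2324, 1811, 1527 and 3014 CPM, narrowly lower in 5XFAD-2 and PS-5X. Of 23 genes of antigen presentation and interferon gamma response 2 were higher and 3 lower (median -0.12). The 20 genes of dissociation and heat shock, which tissue digestion can induce, had 3 higher and 11 lower (median -0.23), with Jun at -0.75 and Fos at -0.41 on the log2 scale.

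Markers of other cell types were low or alike in both groups with 1 exception. The summed B and plasma cell markers were at 4160 CPM in the selected cells of 5XFAD-2 and at 71.4 to 186 CPM in those of the other pools, against 119 to 511 CPM in other cells. Of 4613 Igkc and Jchain UMIs in the 91 selected cells of 5XFAD-2, 3253 lay in 1 cell. 0 of 7 B and plasma cell genes passed the edgeR test (median 0.61). Summed microglia and macrophage markers were at 246 to 334 CPM against 243 to 275 CPM, natural killer markers at 33.0 to 170 against 49.1 to 149 CPM, and red cell markers at 0 to 0.593 against 0.0503 to 8.93 CPM. Of the T cell markers other than Cd3e, 2 of 6 were lower (Cd3d and Cd3g), and so were both CD8 markers (Cd8a and Cd8b1) and 0 of 2 CD4 markers. Of the 35 fixed state genes, which run through the lists above, 8 were higher and 13 lower (median -0.10).

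Within CD8 cells alone, which takes the mixture of lineages out, 2997 of 10218 genes (29.3%) passed, cycle genes included. Of 10071 genes outside the cycle lists 1518 (15.1%) were higher and 1332 (13.2%) lower. Gzma was at 548, 3114, 992, 161, 381 and 92.5 CPM in selected and 326, 664, 292, 83.3, 128 and 98.4 CPM in other CD8 cells, higher in 5 of 6 pools with PS-5X the exception (log2 difference 1.30, SE 0.19; edgeR adjusted p = 1.96e-05). Gzmb (0.89, edgeR adjusted p = 0.00188) and Irf4 (0.41, edgeR adjusted p = 0.00306) were higher too. Irf4 lost its call at 3 or more Mki67 and Top2a UMIs (0.24, edgeR adjusted p = 0.139) and without naive-type cells (0.22, edgeR adjusted p = 0.277), and all 3 genes did without pool as a block. Il7r was at 187 to 346 against 433 to 666 CPM (log2 difference -1.32, edgeR adjusted p = 6.27e-09), and the naive and central memory list had 0 higher and 16 lower (median -1.17).

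S1pr1 (-1.11, edgeR adjusted p = 7.6e-07), Tcf7 (-0.75, edgeR adjusted p = 2.79e-05) and Ccl5 (-0.28, edgeR adjusted p = 0.0252) were lower in selected CD8 cells. Pdcd1 (-0.02, edgeR adjusted p = 0.934) and Cxcr6 (-0.21, edgeR adjusted p = 0.101) did not pass, and Pdcd1 passed in opposite directions in 2 alternatives, at 0.48 against the CD8 cells closest in depth (edgeR adjusted p = 0.002) and at -0.33 without naive-type cells (edgeR adjusted p = 0.0492). Ccl5 lost its call without 5XFAD-1, PS19 or PS-5X (-0.22, -0.21 and -0.23), and Cxcr6 gained one without WT-1 (-0.28, edgeR adjusted p = 0.0183). Cxcr6 also passed at 3 or more Mki67 and Top2a UMIs (-0.49, edgeR adjusted p = 0.000535), without naive-type cells (-0.43, edgeR adjusted p = 0.00258) and with no gene filter (-0.26). The CD8 genes printed by name were chosen after their values were seen. Without naive-type cells 1846 CD8 genes passed.

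Amyloid was compared within the selected cells. Of 9327 genes 0 passed by edgeR's quasi-likelihood test with tau as a second term, 452 having an unadjusted p under 0.05 (255 higher and 197 lower in the amyloid pools), and 0 passed by DESeq2. With 6 pools the fit had 3 residual degrees of freedom. The smallest p in each direction belonged to Rhob and Klrg1. Rhob, a small GTPase, was at 67.9, 78.8 and 41.2 CPM in 5XFAD-1, 5XFAD-2 and PS-5X and at 25.4, 32.6 and 27.6 CPM in WT-1, WT-2 and PS19, without overlap (log2 difference 1.01, edgeR adjusted p = 0.589). Klrg1 was at 21.4, 16.6 and 15.6 CPM against 20.3, 107 and 76.2 CPM, WT-1 lying among the amyloid pools (log2 difference -2.12, edgeR adjusted p = 0.584).

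The next higher values were those of Zfp397 (log2 difference 1.13), the exonuclease Isg20 (1.50), the cytokine signal suppressor Socs1 (0.85) and Rnf157 (0.81), and the next lower ones those of the histone genes Hist1h3a (-1.31) and Hist1h2ap (-0.90), Rap1gap2 (-1.59) and S1pr5 (-2.60), a receptor of terminal effector cells. Their edgeR adjusted p lay between 0.584 and 0.589. With no filter on low genes 101 genes passed, and without WT-1 28 did, 13 higher and 15 lower, Klrg1, Isg20, Socs1, Hist1h3a and Hist1h2ap among them; without WT-2 1 gene and without 5XFAD-1 4 genes passed.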

How the data were processed

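Cell Ranger 6.0.1 was the authors' pipeline, and GRCm38 and mm10 are named as builds, per the submitters' processing notes; other settings are not given in the sources used here. The deposited matrix holds raw UMI counts per gene and barcode for the 6 pools together, and the deposited receptor table holds, per the file headers, contigs with UMI counts, CDR3 sequences, the authors' clonotypes and pool names, which tied each barcode to its pool. Znf683, Mx1, Trgc1 and Trgc2 were not analysed here.

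Of 18374 barcodes 17962 were kept, those that held 500 or more genes and no more than 10% UMIs of mitochondrial genes. Doublets were scored with Scrublet (scanpy 1.11.5) and left in, except in an alternative. Clones were counted over kept cells of a pool. Shares were compared over pools with exact permutation tests (scipy 1.17.1, two-sided, 95% Clopper-Pearson intervals). UMI sums per pool and class were fitted with edgeR 4.0.16 (R 4.3.3; TMM, filterByExpr, quasi-likelihood, pool as block, Benjamini-Hochberg adjustment), and DESeq2 1.42.0 was an alternative. With pool as block or pair, the p-values of selected against other cells measure the spread of the within-pool differences. Those for amyloid measure the spread between pools of animals. The fit was tested on simulated data.

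The members, gene lists and tests were chosen with earlier results of these data known. Genes were named by rule: the 4 markers, every fixed state gene, the 12 largest rises and 12 largest falls with 1 direction in every pool and a mean of 20 CPM or more in the higher class, and the 5 smallest p-values each way for amyloid. Some genes that the rule names are not reported here. Other genes named within lists are examples chosen after their values were seen. Clones were named by their number of selected cells. WT-2 and 5XFAD-2, which share the number 2, were sequenced in 1 separate run per the labels, so the number pairs them. Alternatives covered the selection threshold, thinning, depth-matched comparison cells (5 per selected cell), naive-type cells, doublets, shared WT-1 receptors, clone size, gene filter, normalization, tool, block and each pool left out. The division at 30 cycle genes, the depth-matched lineage shares and the depth-matched clone shares without naive-type cells were added after seeing the data.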

Additional observations from a re-analysis of the deposited data

Results flagged for a closer look

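Barcodes outside the T cell comparison also held Mki67 and Top2a. Among kept barcodes with no Cd3e UMI, 8 of 96 in 5XFAD-2 (8.33%) and 5 of 167 in PS-5X (2.99%) had 2 or more UMIs of the 2 genes, above the 1 of 121 in WT-2 and 1 of 54 in PS19, pools without amyloid. The other amyloid pool, 5XFAD-1, had 1 of 73, a lower share than PS19, and WT-1 had 0 of 32, which allows a share of up to 9.38%. These barcodes enter no comparison above, and their part in it was not tested.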

How the results depend on the processing

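Named genes kept direction and side of the threshold in 766 of 900 alternative values, and the other results in 114 of 154. The difference between amyloid pools and the others in the share of selected cells turned to 0.966 points with 1 or more Mki67 and Top2a UMIs and to 0.196 points in cycle-poor cells, and it ran from -0.635 to 0.0122 points with 1 pool left out. The pairing by sequencing run, which the number 2 marks in the labels, gave no other call for this share or for amyloid.

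Among lineages, leaving out 1 pool gave -4.39 to 0.397 points for CD8. The CD4 difference passed at 3 or more UMIs (9.08 points) and against the cells closest in depth (10.7), and the γδ difference at 3 or more UMIs (-3.03), with no replicate block (-2.90) and against the cells closest in depth (-2.70).

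The expanded-clone differences of all and of CD8 cells did not pass at 3 or more UMIs (6.71 and 11.5 points), thinned (11.0 and 13.6), without naive-type cells (3.29 and 3.83), with 5 cells as the minimum (4.72 and 5.80), with no replicate block (10.55 and 13.4) or without naive-type cells against the cells closest in depth (9.84 and 11.9). With 1 pool left out they ran from 7.92 to 12.6 and from 10.1 to 16.0 points, where 5 pools cannot pass. Against the cells closest in depth they were 19.8 and 25.5 points and passed, as did the CD4 difference (8.88).

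Called genes were 2695 over all cells and 1846 in CD8 cells without naive-type cells, 101 for amyloid with no gene filter, and 0 to 28 for amyloid with 1 pool left out. With 1 pool left out, 3373 to 4406 genes were called over all cells and 2271 to 3192 in CD8 cells. With no replicate block the calls of Gzma, Gzmb, Gzmk, Ifng, Lag3, Tnfrsf9, Cxcr6, Cd69 and Myc were lost.

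Signs turned for these genes, all but Gzmk and CD8 S1pr1 uncalled at first, log2 differences given: at 3 or more UMIs Tox (-0.17), Tigit (-0.10), Itgae (-0.35), Ccl3 (-0.16) and Ccl4 (-0.16). Without naive-type cells Tox (-0.0856), Tigit (-0.20), Itgae (-0.0798), Gzmk (-0.0203), Ccl4 (-0.0740), Nr4a1 (-0.0186) and CD8 S1pr1 (0.0222) turned. Against the cells closest in depth Pdcd1 (0.43), Mif (-0.0551), CD8 Pdcd1 (0.48) and CD8 Cxcr6 (0.0678) turned. Without doublets Pdcd1 (0.0113), CD8 Pdcd1 (0.0447) and Itgae (-0.00811) turned. With no replicate block Pdcd1 (0.0160) and CD8 Pdcd1 (0.0363), without shared WT-1 receptors Itgae (-0.000366) and CD8 Pdcd1 (0.00701), with no gene filter Itgae (-0.0219), and with DESeq2 Ccl3 (-0.0135) and CD8 Pdcd1 (0.00258) turned. With 1 pool left out the ranges were -0.14 to 0.0725 for Pdcd1, -0.10 to 0.0901 for CD8 Pdcd1, -0.00594 to 0.12 for Tigit, -0.0771 to 0.21 for Itgae, -0.29 to 0.43 for Ccl3 and -0.18 to 0.30 for Ccl4. The cause was not tested. The WT-1 sum of selected cells, from 34 cells, limits what single genes can show there.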
